A study of Mus musculus with 4 samples.

Results

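Solute carriers are membrane proteins that move amino acids, sugars, nucleosides, metals, ions, vitamins and metabolites across the plasma membrane and the membranes of organelles. They are grouped into numbered families by sequence, and most work by facilitated diffusion, by exchange or by coupling to a gradient of sodium or protons. In macrophages they are known for feeding glycolysis and exporting lactate after activation, for handling amino acids and peptides in lysosomes, and for withdrawing metals from the phagosome. The genes described here are the rows of the expression table whose symbol begins with Slc and a number. There were 192 such rows, and leaving out Slc40a1, Slc48a1, Slc7a11, Slc7a2, Slc30a1 and Slc39a14 gave 186 of 11111 genes, from 45 families. A mean of at least 50 reads per library was reached by 161 of the 186 genes.

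RNA sequencing was done on macrophages grown for 7 days from bone marrow of wild-type C57BL/6 mice, with a medium change on day 4. Cells received a control morpholino (Ctrl MO) or Regnase-1 morpholinos (Reg1-MOs), both at 2 µM with the delivery agent Endoporter (6 µl/ml) for 24 hours, and lipopolysaccharide (LPS) at 10 ng/ml then followed for 4 hours in every sample. Morpholinos are synthetic antisense oligomers, and the targeted protein is an endonuclease that cleaves mRNAs of inflammatory genes. There were 2 libraries per group. The labels do not say whether these came from different animals or cultures, and the p-values therefore measure only the spread between libraries, which may be technical. In the table, the Reg1-MOs columns carry the headings MO1 and MO2, also the names of the 2 Regnase-1 morpholinos, and whether a library received 1 or both could not be settled.

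The table held 23369753 to 25213695 reads per library, and the 186 genes took 1.14% to 1.15% of them. Zc3h12a, the gene of Regnase-1, had 3407 and 3572 reads in the controls against 7799 and 6753 with Reg1-MOs (reads are given in this order throughout, replicate 1 before replicate 2), 2.14-fold higher. Reads measure RNA and not protein, so these data do not show whether the Regnase-1 protein fell. All 8 macrophage markers were present in every library, with 1 rise and 2 falls among them. Cd68 rose by 0.34, Itgam fell by 0.67 and Lyz2 fell by 0.27 on the log2 scale. The other 5, such as Adgre1, Csf1r and Cd14, were not called. Of these markers 37.5% were called, against 12.2% of all genes. Of 12 stromal and fibroblast markers 10 were in the table, and all 10 fell, by 0.55 to 1.92 on the log2 scale; their summed reads were 6073 and 6386 in the controls and 2362 and 2557 with Reg1-MOs. This fall ran alongside every solute carrier result below, and its part in them was not tested. Of 8 neutrophil markers 7 were present and none was called, and of 7 erythroid markers only Epor was present, with 4 to 6 reads.

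With Reg1-MOs, 19 of the 186 solute carrier genes (10.2%) rose and 12 (6.45%) fell at a limma adjusted p of at most 0.05, while 6.22% of all genes were higher and 6.03% lower. The largest rise was that of the purine nucleobase transporter Slc43a3 (4.77-fold higher), and the largest fall that of the mitochondrial ATP-Mg/phosphate carrier Slc25a23 (5.42-fold lower). Amino acid carriers held 6 of the 19 rises and no fall. This class counts the creatine transporter Slc6a8 and the carrier subunit Slc3a2 among its rises. The sodium, proton and cation-chloride carriers held 3 falls and no rise. Since RNA was taken from whole cultures, fewer cells of a type and less RNA per cell cannot be told apart.

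Most of these changes were small. The median log2 fold change was -0.03 over the 186 genes and -0.03 over all genes, and the median size of the 31 changes past the threshold was 0.52 (0.53 among all genes past it). At least 2-fold were 2 rises, of Slc43a3 and Slc26a11, and 2 falls, of Slc25a23 and Slc16a9. Among all 11111 genes, 89 rises and 127 falls past the threshold were at least 2-fold. Slc26a11, Slc25a23 and Slc16a9 averaged under 50 reads per library. Both Reg1-MOs libraries lay above both controls for 64 solute carrier genes (34.4%, against 27.1% of all genes) and below both for 60 (32.3%, against 31.8%). Per gene, the 2 controls differed by a median of 0.09 and the 2 Reg1-MOs libraries by 0.13 on the log2 scale.

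Dropping a library lowered most counts. Such a fit takes its spread from the group that keeps both libraries, so adjusted p-values of different fits are on unlike scales. A call lost in this way therefore does not show that it rested on the dropped library. The rises and falls were 11 and 5 with the first control dropped, 9 and 6 with the second, 8 and 5 with the first Reg1-MOs library dropped, and 13 and 13 with the second. With any 1 library dropped, 9 of the 31 calls stood: the rises of Slc43a3, Slc28a2, Slc39a6, Slc11a1, Slc6a8 and Slc38a1 and the falls of Slc25a23, Slc16a9 and Slc37a3. When the fit had no variance trend, 5 of the 31 calls remained, those of Slc43a3, Slc39a6, Slc25a23, Slc16a9 and Slc37a3. Of these, Slc25a23 and Slc16a9 averaged under 50 reads per library.

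**Figure D1:**
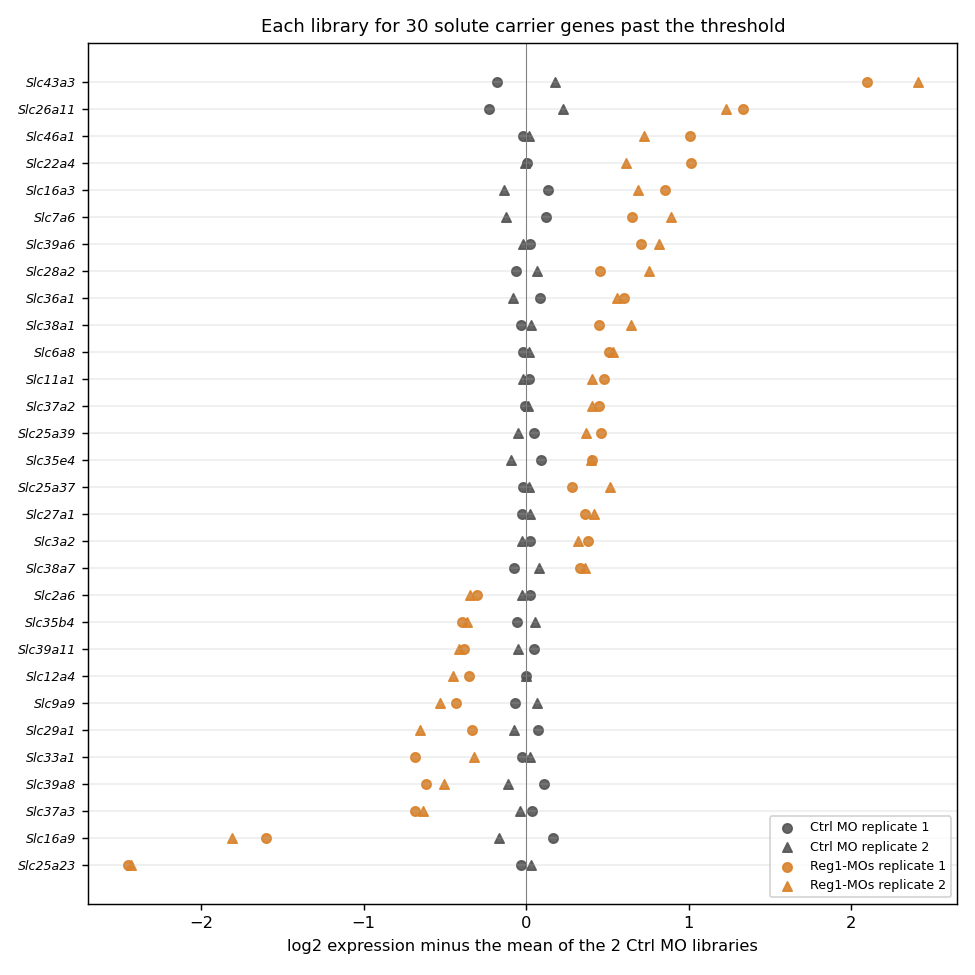
Each of the 4 libraries for 30 of the 31 solute carrier genes past the threshold, as deposited log2 expression minus the mean of the 2 Ctrl MO libraries of that gene (horizontal axis), with circles for replicate 1 and triangles for replicate 2. Ctrl MO (grey) and Reg1-MOs (orange) libraries do not overlap for any of these 30 genes. The genes were picked by adjusted p in these same libraries, so this gap is no separate evidence. Slc43a3 and Slc25a23 lie at the ends.

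Nucleoside and nucleobase carriers moved in both directions: of 5 in the table, 2 rose and 1 fell, with a median log2 fold change of -0.01. Slc43a3 (ENSMUSG00000027074; chromosome 2, 84936579 to 84958509, plus strand, GRCm38), which brings purine nucleobases into cells, had 64 and 82 reads in the controls against 317 and 361 with Reg1-MOs. Both Reg1-MOs libraries were far above the controls, a log2 fold change of 2.25 (SE 0.17, adjusted p = 0.000722). Slc28a2 (ENSMUSG00000027219; chromosome 2, 122426477 to 122461137, plus strand), the sodium-coupled importer of purine nucleosides, had 7947 and 8682 reads in the controls against 11558 and 13069 and rose by 0.60 (SE 0.10, adjusted p = 0.0113). It ranked 6 of the 186 genes by control reads per kb of exon, and it was 1.52-fold higher.

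Slc29a1, the gene of the equilibrative nucleoside transporter ENT1, had 1420 and 1281 reads in the controls against 1089 and 798 and fell by 0.49 (SE 0.12, adjusted p = 0.0355). The 2 Reg1-MOs libraries were unequal for it, and it did not pass once the first control or the second Reg1-MOs library was dropped (adjusted p up to 0.0917). The lysosomal relative Slc29a3 had 940 and 928 control reads against 898 and 903 (-0.01, adjusted p = 0.935), and Slc29a2 had 1 to 10 reads per library (-1.93, adjusted p = 0.115).

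Of 21 genes classed as amino acid carriers, 6 rose and 0 fell, with a median log2 fold change of 0.17. The creatine transporter Slc6a8 (ENSMUSG00000019558; chromosome X, 73673150 to 73682502, plus strand) had 1504 and 1545 reads in the controls against 2205 and 2056 and rose by 0.52 (SE 0.07, adjusted p = 0.00422). Replicates of each group lay close together for it. Slc38a1 (ENSMUSG00000023169; chromosome 15, 96571418 to 96642913, minus strand), a sodium-coupled carrier of glutamine and other neutral amino acids, had 1125 and 1172 reads in the controls against 1592 and 1674 and rose by 0.55 (SE 0.09, adjusted p = 0.00894). Its relative Slc38a2 lies 44478 bp away and had 4910 and 5365 control reads against 4536 and 5020 (-0.07, adjusted p = 0.697). The difference between these neighbours was not tested.

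Slc3a2 encodes CD98, the heavy chain that brings several light chains of the Slc7 family to the plasma membrane. It had 10314 and 9958 reads in the controls against 13424 and 11789 and rose by 0.35 (SE 0.06, adjusted p = 0.0135). Among the light chains, Slc7a6, an exchanger of cationic for neutral amino acids, had 96 and 81 reads in the controls against 141 and 153 and rose by 0.77 (SE 0.16, adjusted p = 0.0211). The large neutral amino acid carrier Slc7a5 had 1404 and 1438 control reads against 1567 and 1437 (0.12, adjusted p = 0.31), and Slc7a8 had 4417 and 4796 against 5426 and 5387 (0.27, adjusted p = 0.0562). The exchanger Slc7a7 stood at 0.15 (adjusted p = 0.187). Slc7a8 and the neutral amino acid carrier Slc43a2 (925 and 1039 control reads against 1195 and 1136; 0.29, adjusted p = 0.0696) passed with equal totals (adjusted p = 0.0271 and 0.0445) and with quantile normalization (0.0274 and 0.0497). Slc3a2 did not pass once either control or the first Reg1-MOs library was dropped (adjusted p up to 0.179), nor did Slc7a6 once the second control or either Reg1-MOs library was dropped (adjusted p up to 0.0842).

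A pair of lysosomal carriers also rose. Slc36a1, a proton-coupled exporter of small amino acids, had 183 and 163 reads in the controls against 267 and 237 and rose by 0.58 (SE 0.12, adjusted p = 0.0196). The lysosomal glutamine exporter Slc38a7 had 511 and 568 reads in the controls against 690 and 646 and rose by 0.35 (SE 0.09, adjusted p = 0.0484). Slc36a1 did not pass once the second control or either Reg1-MOs library was dropped (adjusted p up to 0.115), nor did Slc38a7 once any 1 of the 4 libraries was dropped (adjusted p up to 0.364). The lysosomal arginine sensor Slc38a9 (0.17, adjusted p = 0.382) and the lysosomal cationic amino acid exporter Slc66a1 (0.37, adjusted p = 0.161) did not pass. Among importers at the cell surface, the glutamine carrier Slc1a5 had 271 and 257 control reads against 352 and 296 (0.33, adjusted p = 0.0822), and the arginine carrier Slc7a1 had 2962 and 3183 against 2941 and 3407 (0.08, adjusted p = 0.659). The taurine transporter Slc6a6 was abundant throughout, with 22603 and 25268 control reads against 18939 and 19646 (-0.27, adjusted p = 0.0834). The class had 4 rises with the first control dropped, 2 with the second control or the first Reg1-MOs library dropped, and 3 with the second Reg1-MOs library dropped. At 2 rises it was level with the divalent metal and the nucleoside carriers, and without a variance trend it had 0 rises where those had 1 each.

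**Figure D2:**
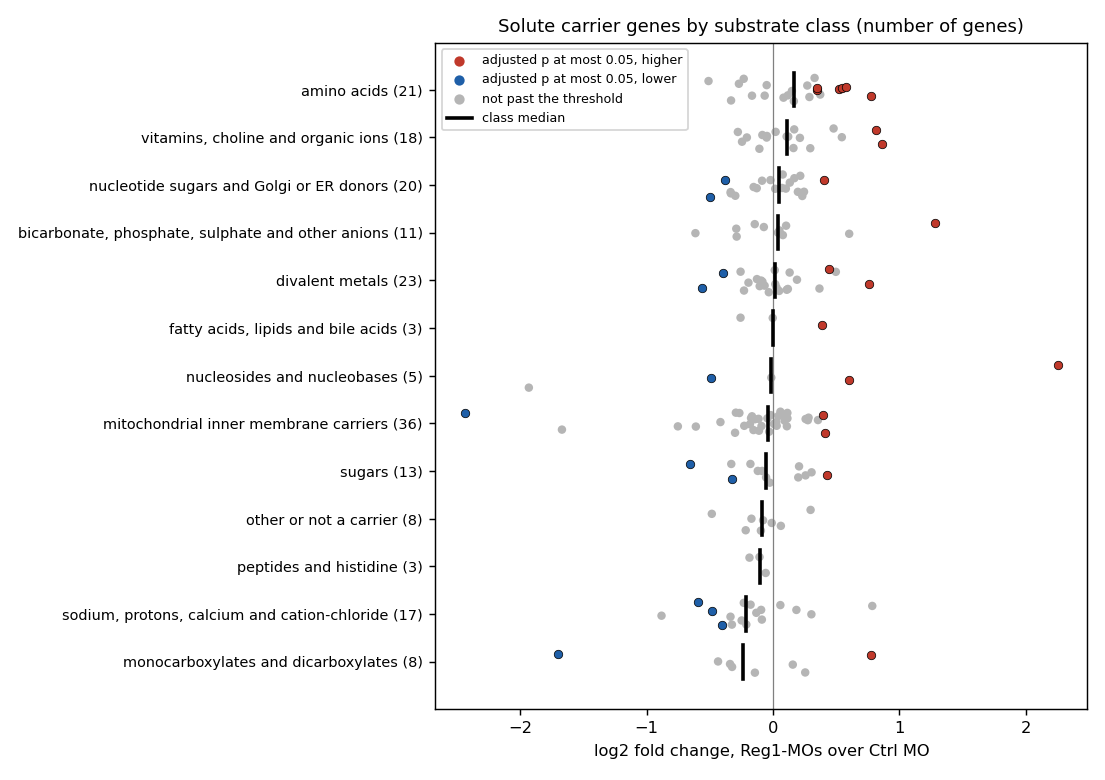
Log2 fold change (Reg1-MOs over Ctrl MO, horizontal axis) of all 186 genes by substrate class, with the number of genes in parentheses; red and blue points passed the threshold, grey ones did not, and black bars are class medians. Amino acid carriers have 6 red points and no blue one, and sodium, proton, calcium and cation-chloride carriers have 3 blue points and no red one.

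Peptide and histidine carriers had no call among 3 genes. Those of the endolysosome are known for passing bacterial muropeptides and supporting endosomal Toll-like receptor signalling. Slc15a3 ranked 2 of the 186 genes by level per length, with 36773 and 36047 reads in the controls against 33156 and 29247. Both Reg1-MOs libraries were lower for it (-0.19, SE 0.06, adjusted p = 0.0941). Slc15a4 had 2285 and 2332 control reads against 2248 and 2072 (-0.06, adjusted p = 0.607), and Slc15a2 had 136 to 169 reads per library (-0.11, adjusted p = 0.647).

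Sugar and sugar phosphate carriers had 1 rise and 2 falls among 13 genes, with a median log2 fold change of -0.05. Slc2a6, the gene of the lysosomal glucose transporter family member GLUT6, had the highest level per length of the 186 genes. Its level was 324 and 309 reads per kb of exon and 1000000 table reads in the controls and 266 and 249 with Reg1-MOs. From 25887 and 25021 control reads against 21016 and 18686 it fell by 0.32 (SE 0.06, adjusted p = 0.0169). Slc2a1, the gene of GLUT1, the main glucose importer of activated macrophages, had 1625 and 1603 reads in the controls against 1882 and 1745 (0.21, SE 0.07, adjusted p = 0.0942).

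In the Slc37 family, which includes the glucose-6-phosphate carrier of the endoplasmic reticulum, 2 members moved in opposite directions. Slc37a2, an exchanger of sugar phosphates for phosphate, had 1542 and 1560 reads in the controls against 2151 and 1914 and rose by 0.43 (SE 0.07, adjusted p = 0.00895). Slc37a3 (ENSMUSG00000029924; chromosome 6, 39334773 to 39377675, minus strand), known for a part in releasing bisphosphonates from lysosomes, had 597 and 565 reads in the controls against 368 and 348. Both Reg1-MOs libraries were well below the controls, a fall of 0.66 (SE 0.09, adjusted p = 0.00482). Slc37a1 (-0.18, adjusted p = 0.531) and the glucose-6-phosphate carrier Slc37a4 (-0.09, adjusted p = 0.793) did not pass. Slc37a2 no longer passed once either control was dropped (adjusted p up to 0.0668), and neither did Slc2a6 once either control or the first Reg1-MOs library was dropped (adjusted p up to 0.213). The class had 0 rises and 1 fall with either control dropped, and 1 of each with the first Reg1-MOs library dropped.

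Among 8 carriers of monocarboxylates and dicarboxylates, 1 rose and 1 fell, with a median log2 fold change of -0.23. Slc16a3 (ENSMUSG00000025161; chromosome 11, 120948480 to 120960868, plus strand) encodes MCT4, the proton-coupled exporter of lactate from glycolytic cells. It had 371 and 308 reads in the controls against 622 and 508 and rose by 0.77 (SE 0.12, adjusted p = 0.0077). It did not pass once the first Reg1-MOs library was dropped (adjusted p = 0.0852), which left the class with 0 rises. The lactate and pyruvate carrier Slc16a1, also called MCT1, had 250 and 264 control reads against 293 and 304 (0.26, adjusted p = 0.175). Slc16a9 (ENSMUSG00000037762; chromosome 10, 70245100 to 70285968, plus strand), known as a carnitine transporter, had 48 and 38 reads in the controls against 14 and 11. These few reads fell by 1.70 (SE 0.27, adjusted p = 0.00815).

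Slc13a3, a sodium-coupled dicarboxylate importer, had 192 and 219 control reads against 166 and 131 (-0.43, adjusted p = 0.0781). The aromatic amino acid carrier Slc16a10, counted here with its family, held the highest read counts of the class, at 7544 and 7597 against 8053 and 8375 (0.16, adjusted p = 0.221). Slc16a6 stood at -0.32 (adjusted p = 0.141). Bsg, an accessory protein that brings such carriers to the surface, had 2752 and 2635 control reads against 3336 and 2783 (0.22, adjusted p = 0.103), and its relative Emb had 2039 and 2158 against 2512 and 2377 (0.26, adjusted p = 0.0532).

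Mitochondrial inner membrane carriers of the Slc25 family, 36 genes, had 2 rises and 1 fall and a median log2 fold change of -0.04. Slc25a23 (ENSMUSG00000046329; chromosome 17, 57043711 to 57059863, minus strand), a calcium-regulated carrier that exchanges ATP-Mg for phosphate, had 76 and 79 reads in the controls against 14 and 13. Replicates of each group nearly coincided, and the fall was 2.44 (SE 0.21, adjusted p = 0.00121), or -1.95 as a log2 fold change with an offset of 8 reads. Its paralogue Slc25a24 had 648 and 670 control reads against 614 and 642 (-0.03, adjusted p = 0.863), and Slc25a25 had 1175 and 1220 against 1103 and 993 (-0.15, adjusted p = 0.214).

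Slc25a39, required for glutathione import into mitochondria, had 980 and 912 reads in the controls against 1321 and 1136 and rose by 0.41 (SE 0.08, adjusted p = 0.0187). Its paralogue Slc25a40 had 69 and 65 control reads against 43 and 42 (-0.61, adjusted p = 0.0631). Slc25a37, the gene of the mitochondrial iron importer mitoferrin-1, had 924 and 945 reads in the controls against 1154 and 1245 and rose by 0.40 (SE 0.10, adjusted p = 0.0368), while the mitoferrin-2 gene Slc25a28 stood at 0.09 (adjusted p = 0.533). Slc25a39 did not pass once the second control or the first Reg1-MOs library was dropped (adjusted p up to 0.175), nor did Slc25a37 once either control or the second Reg1-MOs library was dropped (adjusted p up to 0.129). The class had 1 rise with the first control or either Reg1-MOs library dropped and 0 with the second control dropped.

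The ADP/ATP exchangers, which supply ATP to the cytosol, did not pass: Slc25a4 had 1900 and 1770 control reads against 1802 and 1515 (-0.11, adjusted p = 0.395), and Slc25a5 had 2278 and 2292 against 2199 and 1982 (-0.09, adjusted p = 0.404). The dicarboxylate carrier Slc25a10 had 1775 and 1586 against 1478 and 1200 (-0.29, adjusted p = 0.0816). The phosphate carrier Slc25a3 (0.10, adjusted p = 0.425) and the citrate carrier Slc25a1 (-0.02, adjusted p = 0.90) did not pass either. Slc25a5 has an annotated processed pseudogene, and the counting step, which is not stated, may have split its reads.

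Carriers of divalent metals, 23 genes, had 2 rises and 2 falls and a median log2 fold change of 0.01. Slc39a6 (ENSMUSG00000024270), the gene of the zinc importer ZIP6, had 768 and 745 reads in the controls against 1255 and 1245. Replicates of each group were close to each other, and the rise was 0.76 (SE 0.08, adjusted p = 0.00211). Slc11a1 (ENSMUSG00000026177; chromosome 1, 74375195 to 74386062, plus strand) encodes NRAMP1, a phagosomal carrier of iron and manganese whose function in these cells was not tested. It had 5720 and 5575 reads in the controls against 8005 and 6977 and rose by 0.44 (SE 0.06, adjusted p = 0.00602). Its relative Slc11a2, the gene of the iron importer DMT1, had 4678 and 4980 control reads against 5101 and 4410 (0.01, SE 0.07, adjusted p = 0.918). The difference between the 2 was not tested.

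Slc39a8, the gene of the zinc and manganese importer ZIP8, had 373 and 320 reads in the controls against 229 and 227 and fell by 0.56 (SE 0.12, adjusted p = 0.0233). Slc39a11, the gene of ZIP11, had 491 and 457 reads in the controls against 370 and 331 and fell by 0.40 (SE 0.09, adjusted p = 0.0348). Slc39a8 did not pass once the first control or either Reg1-MOs library was dropped (adjusted p up to 0.139), nor did Slc39a11 once any 1 of the 4 libraries was dropped (adjusted p up to 0.25). The metal carriers had 1 fall with the second control dropped and none with any other library dropped. The copper carrier Slc31a2 had 9670 and 9415 control reads against 8673 and 7594 (-0.19, adjusted p = 0.0883), and the copper importer Slc31a1 had 4112 and 4124 against 4204 and 4087 (0.05, adjusted p = 0.663). Slc39a1, the zinc importer with the highest level per length, had 4559 and 4358 against 4613 and 3896 (-0.03, adjusted p = 0.797), and a pseudogene copy of it is annotated.

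Of 17 carriers of sodium, protons, calcium and cation-chloride pairs, 0 rose and 3 fell, with a median log2 fold change of -0.21. The potassium-chloride cotransporter KCC1 (Slc12a4) exports both ions and takes part in the control of cell volume. Slc12a4 had 5083 and 5094 reads in the controls against 4046 and 3473 and fell by 0.40 (SE 0.07, adjusted p = 0.0101). The endosomal sodium-proton exchanger Slc9a9 had 1368 and 1499 reads in the controls against 1080 and 925 and fell by 0.48 (SE 0.08, adjusted p = 0.012). Slc12a4 did not pass once either control was dropped (adjusted p up to 0.0772), nor did Slc9a9 once the second control or either Reg1-MOs library was dropped (adjusted p up to 0.0988). The class had 1 fall with the second control or the first Reg1-MOs library dropped, and 2 with either of the other libraries dropped.

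Several relatives did not pass. Slc12a7 had 1322 and 1385 control reads against 1183 and 1146 (-0.18, adjusted p = 0.172), the sodium-potassium-chloride importer Slc12a2 had 234 and 236 against 163 and 201 (-0.34, adjusted p = 0.194), and the Golgi exchanger Slc9a8 had 1353 and 1394 against 1170 and 1082 (-0.25, adjusted p = 0.0649). Atp1b3, a beta subunit of the sodium pump that maintains the gradient, had 9255 and 9191 control reads against 7900 and 7305 and fell by 0.24 (SE 0.06, adjusted p = 0.0422), but did not pass once either control or the first Reg1-MOs library was dropped (adjusted p up to 0.377).

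Carriers of bicarbonate, phosphate, sulphate and other anions, 11 genes, had 1 rise. Slc26a11, of the sulphate carrier family, had 13 and 18 reads in the controls against 40 and 34 and rose by 1.28 (SE 0.27, adjusted p = 0.0246). It did not pass once the first control or either Reg1-MOs library was dropped (adjusted p up to 0.111), and in each of these cases the class had 0 rises. The phosphate importer Slc20a1 had 842 and 821 control reads against 849 and 828 (0.05, adjusted p = 0.71), and the phosphate exporter Xpr1 had 896 and 1048 against 1167 and 1370 (0.42, adjusted p = 0.0773).

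Among 18 carriers of vitamins, choline and organic ions, 2 rose and 0 fell, with a median log2 fold change of 0.11. Slc22a4, the gene of the ergothioneine transporter OCTN1, had 90 and 89 reads in the controls against 184 and 128 and rose by 0.81 (SE 0.17, adjusted p = 0.0205). It lies in a row with 2 relatives (chromosome 11, 53983123 to 54028090, minus strand). Slc22a21, 2790 bp away, had 21 to 29 reads per library (0.30, adjusted p = 0.488). Slc22a5, the gene of the carnitine importer OCTN2, had 228 and 240 control reads against 249 and 246 (0.12, adjusted p = 0.502). Slc46a1, the gene of the proton-coupled folate transporter, had 35 and 36 reads in the controls against 73 and 55 and rose by 0.87 (SE 0.20, adjusted p = 0.0305). The reduced folate carrier Slc19a1 had 45 and 46 control reads against 75 and 56 (0.55, adjusted p = 0.103). Slc22a18 had 81 and 75 against 109 and 103 (0.48, adjusted p = 0.0711; 0.045 with quantile normalization). Slc22a4 did not pass once the first Reg1-MOs library was dropped (adjusted p = 0.0924), nor did Slc46a1 once either control or the first Reg1-MOs library was dropped (adjusted p up to 0.115). The class had 1 rise with either control dropped and 0 with the first Reg1-MOs library dropped. With the second Reg1-MOs library dropped it had 2 rises and 2 falls.

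The 20 nucleotide sugar transporters and other suppliers of the Golgi and endoplasmic reticulum had 1 rise and 2 falls, with a median log2 fold change of 0.04. Slc33a1, which imports acetyl-CoA into the endoplasmic reticulum, had 458 and 472 reads in the controls against 294 and 347 and fell by 0.50 (SE 0.13, adjusted p = 0.0481). Slc35b4, a transporter of UDP-xylose and UDP-N-acetylglucosamine, had 582 and 630 reads in the controls against 469 and 438 and fell by 0.38 (SE 0.09, adjusted p = 0.0353). Slc35e4, an orphan member, had 375 and 330 reads in the controls against 474 and 433 and rose by 0.40 (SE 0.10, adjusted p = 0.0424). Slc35b4 did not pass once any 1 of the 4 libraries was dropped (adjusted p up to 0.316), nor did Slc35e4 once any 1 of the 4 libraries was dropped (adjusted p up to 0.352). Slc33a1 did not pass once either control or the first Reg1-MOs library was dropped (adjusted p up to 0.117) or with an offset of 8 reads (0.0505). The class had no call with either control or the first Reg1-MOs library dropped, and 3 falls with the second Reg1-MOs library dropped.

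Of 3 carriers of fatty acids, Slc27a1, which takes up long-chain fatty acids, had 861 and 890 reads in the controls against 1143 and 1090 and rose by 0.39 (SE 0.08, adjusted p = 0.0187). It did not pass once either control or the first Reg1-MOs library was dropped (adjusted p up to 0.15), which left 0 rises. Slc27a4 had 535 and 504 control reads against 556 and 458 (0.00, adjusted p = 0.992), and Slc27a6 had 2 to 9 reads per library. None of the 8 remaining genes passed. Of these, Slc9a3r1 is a scaffold protein with 2263 and 2073 control reads against 2861 and 2346 (0.30, adjusted p = 0.0596, and 0.0487 with equal totals). Slc7a6os (-0.08, adjusted p = 0.654), Slc4a1ap (-0.01, adjusted p = 0.955) and Slc2a4rg-ps (-0.17, adjusted p = 0.595) carry the prefix but are not transporters. Slc7a6os lies 2010 bp beyond Slc7a6 on the opposite strand.

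Carriers and partner proteins known under other symbols, a list of 45 with 37 in the table, had 1 rise and 2 falls and a median log2 fold change of 0.08. Besides Atp1b3, the magnesium transporter Magt1 had 1614 and 1662 reads in the controls against 1091 and 1153 and fell by 0.51 (SE 0.09, adjusted p = 0.0122). It did not pass once the first Reg1-MOs library was dropped (adjusted p = 0.0533). The ion channel Tmem63b had 992 and 1011 reads in the controls against 1368 and 1113 and rose by 0.34 (SE 0.09, adjusted p = 0.0427), and it did not pass once either control or the first Reg1-MOs library was dropped (adjusted p up to 0.212). The haem exporter Flvcr1 had 467 and 518 control reads against 612 and 618 (0.36, adjusted p = 0.0544). Of this list 8.11% passed in either direction, of the 186 solute carrier genes 16.7%, and of all genes 12.2%.

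**Figure D3:**
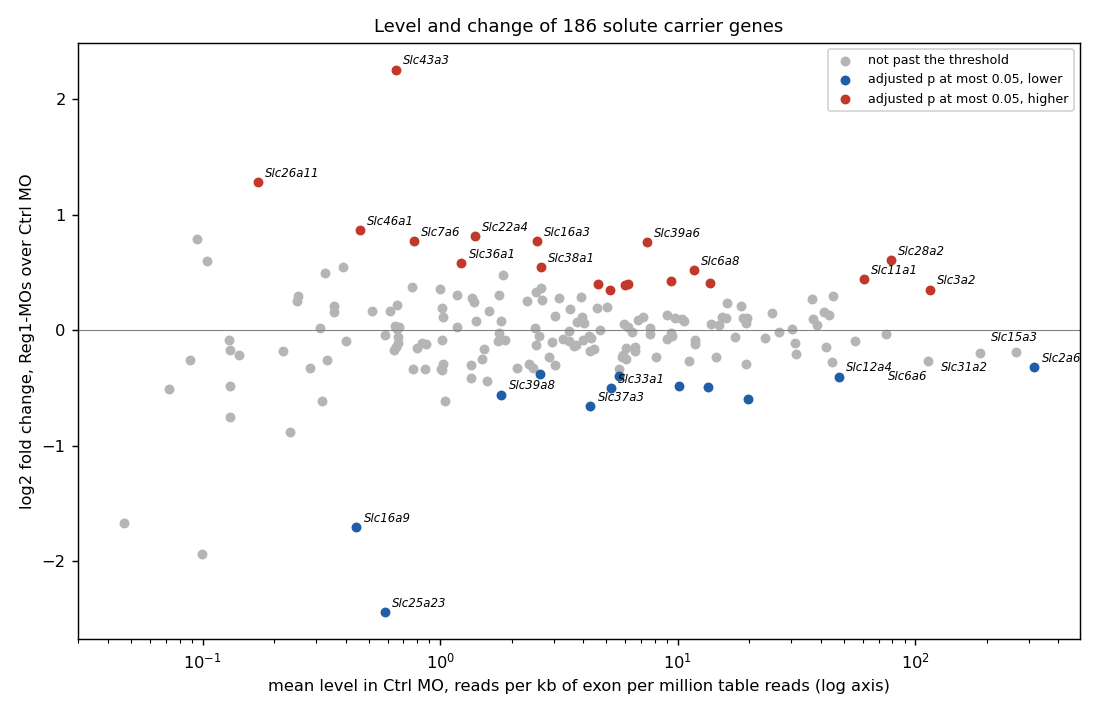
Mean level in the 2 Ctrl MO libraries (horizontal log axis, reads per kb of exon and 1000000 table reads) against the log2 fold change, Reg1-MOs over Ctrl MO (vertical axis), for the 186 genes; red and blue points passed the threshold. The 4 called genes with changes of at least 2-fold lie at the low levels on the left, and the abundant Slc2a6, Slc3a2, Slc28a2, Slc11a1 and Slc12a4 changed by 0.60 or less in size.

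By level per length in the controls, Slc2a6, Slc15a3 and Slc31a2 (191 and 184 reads per kb of exon and 1000000 table reads) led the 186 genes. Slc3a2 (117 and 112) and Slc6a6 (107 and 118) came next, and their control libraries overlapped. With Reg1-MOs their levels were 154 and 143 for Slc3a2 and 90.8 and 99.4 for Slc6a6. The fall of Slc6a6 did not pass, and the difference between these genes was not tested. Exon bases were shared with another gene of the table by 17 of the 186 genes, and over more than 10% of the exon length by Slc24a5, Slc15a3, Slc16a6, Slc4a2 and Slc10a3. The library kit keeps the strand, but how strand was used in counting is not stated, so part of these reads may belong to the other gene. Of the abundant genes, Slc15a3 shared 28.1% of its exon length with Tmem132a on the opposite strand.

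Promoters were searched for CACGTG, the E-box known to be bound by MYC and by the TFE factors that regulate lysosomal genes. RefSeq promoters (GRCm38.p6; 250 bases before to 50 after a start site) were found for 13 genes that rose, 11 that fell and 117 not past the threshold. None was found for Slc43a3, Slc39a6, Slc6a8, Slc38a1, Slc25a37 and Slc26a11, so the 13 leave out the largest rise. CACGTG, which reads the same on both strands, was in promoters of 4 of the 13, 5 of the 11 and 18 of the 117 genes. It was in 8.09% of the 27025 genes with a promoter in RefSeq, which include genes absent from the expression table. A gene counts if any of its promoters holds the motif, and the number of promoters per gene differed between these sets. By promoter, in the same order, it was in 4 of 16, 5 of 22 and 20 of 149, against 7.15% of all 32851. Windows are given for 4 of the 9 genes past the threshold that hold it, 2 that rose and 2 that fell, picked as examples after the matches were seen. The motif is in capitals, 5′ to 3′ on the strand of the gene.
Slc36a1 (rose), chr11:55204301-55204322, plus strand: tggagcggCACGTGacctgggc
Slc36a1 (rose), chr11:55204329-55204350, plus strand: gccagcatCACGTGacagggcc
Slc38a7 (rose), chr8:95853512-95853533, minus strand: ttcaggctCACGTGttacttga
Slc37a3 (fell), chr6:39377707-39377728, minus strand: cccgaggtCACGTGagcgtccg
Slc33a1 (fell), chr3:63964845-63964866, minus strand: cccgcgctCACGTGgcgacgag
With the annotated start site counted as 0, the motif began at -31 and -3 in Slc36a1, -34 in Slc38a7, -13 in Slc37a3 and -125 in Slc33a1. In the other 5 genes it began at -228 in Slc22a4 and -202 in Slc27a1, which rose, and at -75 in Slc29a1, -71 in Slc39a8 and 34 in Slc39a11, which fell.

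The core of the antioxidant response element, TGACNNNGC on either strand, was in promoters of 3 of the 13 genes that rose, 3 of the 11 that fell and 27 of the 117 not past the threshold, against 3781 of the 27025 genes with a promoter in RefSeq. By promoter, in the same order, it was in 4 of 16, 5 of 22 and 29 of 149, against 12.4% of all 32851. In Slc36a1 it overlaps the second E-box, as the window shows.
Slc36a1 (rose), chr11:55204333-55204357, plus strand: gcatcacgTGACAGGGCccggaagc
Slc25a23 (fell), chr17:57059957-57059981, plus strand: tgcacatcTGACAGCGCattcctgg
For Slc25a23 the window is on the strand opposite to the gene. Each motif stood in genes that rose and in genes that fell, and a match describes these letters only.

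**Figure D4:**
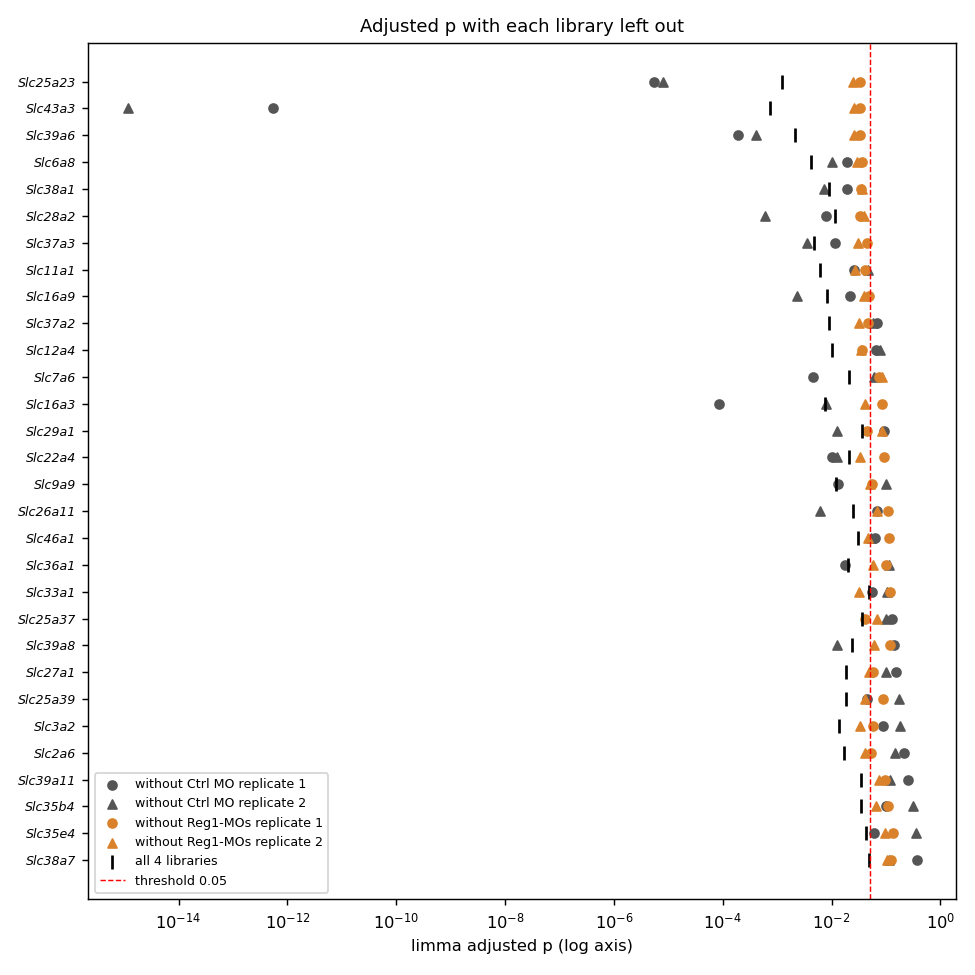
Adjusted p (log axis) of 30 of the 31 genes past the threshold with all 4 libraries (black bars) and with each library left out (circles and triangles; grey for Ctrl MO, orange for Reg1-MOs); the dashed line is the threshold of 0.05. The 9 genes at the top keep all points left of the line.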

How the data were processed

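The authors deposited 1 table of log2 values with a column per library. The submitters' processing notes name cutadapt, FastQC, HISAT2 (1.6.3) and mm10; for the counter, strand setting, gene filter and normalization, no detail was given in the sources used here. Undoing the log2 and each column's scale, and taking off an offset of 0.5, gave whole reads (within 0.01) for 100% of genes, which are the reads printed. The deposited log2 values of all 11111 genes were tested with limma 3.58.1 (R 4.3.3) with a mean-variance trend, group as the only term, no filter, two-sided p and Benjamini-Hochberg adjustment over all genes (threshold 0.05). The fit was run on simulated counts, with 2-fold changes in genes averaging over 50 reads. That run does not bear on smaller changes or on the spread of these libraries. Log2 fold changes compare Reg1-MOs with Ctrl MO (n = 2 libraries each); SE is limma's moderated standard error. With a library dropped, the lone library of its group is assumed to vary like the other group. Other scalings, offsets, weights, filters and a replicate block were also run.

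Substrate classes follow family and known substrates. Levels used GENCODE M21 exon lengths (GRCm38), where all 186 identifiers were found. Members, classes and lists were chosen with earlier results of these data known. Named by rule were 54 genes: 16 fixed, the 10 largest rises and 10 largest falls averaging at least 50 reads, the 3 smallest p of each class, and genes that are not carriers. Others were named after their values were seen. Some genes are counted but not reported here by name.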

Additional observations from a re-analysis of the deposited data

How the results depend on the processing

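Of the 31 solute carrier calls, 31 remained with equal totals, quantile normalization, voom weights or the replicate block, and 30 with an offset of 8 reads. Under a filter at a mean of 50 reads 27 remained. That filter leaves out the other 4, Slc25a23, Slc16a9, Slc26a11 and Slc46a1. Without a variance trend there were 2 rises and 3 falls among the solute carrier genes, and 195 and 182 among all genes, against 691 and 670. With 1 library dropped, solute carrier rises ranged from 8 to 13 and falls from 5 to 13, and those of all genes from 249 to 530 and from 258 to 860. The median log2 fold change of the solute carrier genes was -0.03, -0.0051 with equal totals, and -0.0284 to 0.0103 with 1 library dropped. The cause was not tested. Same-numbered libraries are not stated to be paired. A replicate block gave 32 rises and 37 falls among solute carrier genes, and 1532 and 1891 among all genes. With it, amino acid carriers had 9 rises and 2 falls (Slc6a6, adjusted p = 0.000287, and Slc38a6, 0.0393), and sodium, proton and cation-chloride carriers 0 rises and 8 falls. Slc7a8 (0.000305), Slc2a1 (0.0135) and Slc15a3 (0.0127) also passed with the block. As a check of the numbers, over 9476 genes, deviations of same-numbered libraries from their group means correlated at 0.31. With 2 libraries per group, a gene that did not pass is not shown to be unchanged.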

Other observations

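The 2 Reg1-MOs libraries were unequal for some carriers. Dropping the second of them gave 6 further calls, all falls, named here after their values were seen: Slc4a11, Slc4a7, the Golgi transporters Slc35a3 and Slc35a5, the ascorbate transporter Slc23a2 and the choline transporter Slc44a1. Slc44a1 had 5235 and 5657 reads in the controls against 4009 and 5251, so that the first Reg1-MOs library was the lowest. Its log2 fold change was -0.46 with the second Reg1-MOs library dropped (limma adjusted p = 0.0365) and 0.05 with the first dropped. Slc23a2 had 8743 and 9081 reads in the controls against 6568 and 7784, and in the same order stood at -0.46 (adjusted p = 0.0288) and -0.09. The sodium bicarbonate cotransporter Slc4a7 had 3325 and 3535 reads in the controls against 2757 and 3652 and stood at -0.34 (adjusted p = 0.049) and 0.19. Slc35a3, which carries UDP-N-acetylglucosamine into the Golgi, had 1522 and 1534 reads in the controls against 1059 and 1311 and stood at -0.55 (adjusted p = 0.0276) and -0.12. Slc35a5 stood at -0.48 (adjusted p = 0.0396) and -0.11, and Slc4a11 at -0.88 (adjusted p = 0.0406) and -0.35. None of the 6 passed with all 4 libraries. Falls were also more numerous over all genes in that fit, so the added falls were not particular to solute carriers.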
